A study of Mus musculus with 4 samples.

Results

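The effect of high fat-high sucrose (HFHS) chow against standard (STD) chow was read in epididymal fat of mice that lack *Mir342*. The comparison is the log2 value of the HFHS *Mir342* (-/-) array minus that of the STD *Mir342* (-/-) array, so it uses 2 of the 4 arrays of the series. Of 22180 genes that carried a single symbol, 12963 (58.4%) had a mean over the 4 arrays above a floor of 5.06 and were compared. The floor is the level under which 95% of 1443 probes for olfactory, vomeronasal and taste receptors lie, families read here as background.

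Both groups were male mice labelled C57BL/6J, killed at 16 weeks of age and homozygous for a deletion of *Mir342*. They differed in diet: HFHS (D12331) or STD chow, which the methods of the study name MF. The allele, *Mir342* tm1Wtsi, came from a targeted embryonic stem cell line in which a puromycin-delta-tk cassette replaced the microRNA. It is carried by every cell and not by fat alone, and the founder chimeras had a C57BL/6N background, which the label does not show. The other 2 arrays hold fat of *Mir342* (+/+) mice on HFHS or STD chow. Methods of the study speak of 3 individual animals from each group, while each group has 1 array, and whether that array holds 1 animal or a pool is not stated. A difference between 2 single arrays has no replicate error, so no p-value is given and "higher" and "lower" describe these arrays.

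White fat stores triglyceride in adipocytes, which take up fatty acids from the blood and also make them from sugar under the control of insulin and of the sterol regulatory element-binding proteins. Between meals, glucocorticoids and low insulin turn this program down and release fatty acids. With excess feeding, epididymal fat of mice is known to gather macrophages and other leukocytes. A microRNA lowers the output of messenger RNAs that pair with its seed, the stretch near its 5′ end. *Mir342* lies in an intron of *Evl*, a gene for a regulator of actin filaments.

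The 2 mature strands that neither group can make are shown here to identify what was deleted, with the seed (bases 2 to 8) in capitals. They are RefSeq sequences on build GRCm38.p6, at chr12:108658680-108658702 and chr12:108658638-108658659, plus strand.
miR-342-3p: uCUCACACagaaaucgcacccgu
miR-342-5p: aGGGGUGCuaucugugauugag
The *Mir342* probe of the array was at 4.46 in HFHS *Mir342* (-/-) and 4.62 in STD *Mir342* (-/-), both under the floor. It was at 5.52 in HFHS *Mir342* (+/+) and 5.43 in STD *Mir342* (+/+), both over it. The host gene *Evl* was at 7.46 in HFHS *Mir342* (-/-) and 6.95 in STD *Mir342* (-/-), a log2 difference of 0.52, against 7.65 in HFHS *Mir342* (+/+) and 7.55 in STD *Mir342* (+/+).

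The tissue carried the marks of fat on both *Mir342* (-/-) arrays. *Adipoq*, the gene of adiponectin, was at 10.57 on HFHS and 10.51 on STD, and *Fabp4*, the fatty acid carrier of adipocytes, at 12.45 on each. Markers of the epididymal duct did not set the 2 arrays apart: the 9 of this list over the floor had a median level of 5.36 on HFHS and 5.34 on STD, close to the floor. They did separate the *Mir342* (+/+) arrays, where *Cuzd1* was at 4.64 on HFHS and 8.08 on STD and the list median of HFHS minus STD was -1.37. The part of duct tissue on the STD *Mir342* (+/+) array in the *Mir342* (+/+) values given below was not tested.

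Few genes were far apart between the diets. The interquartile range of all log2 differences in *Mir342* (-/-) was -0.10 to 0.21, with a median of 0.05 and a standard deviation of 0.28 across genes. At least 2-fold higher on HFHS were 75 genes (0.579% of those compared) and at least 2-fold lower 24 (0.185%). At 1.5-fold the counts were 405 higher (3.12%) and 170 lower (1.31%). The receptor probes, which give a view of how far values without a known signal lie apart on these 2 arrays, had a standard deviation of 0.24, with 0 of 1443 at 2-fold higher and 2 at 2-fold lower, and at 1.5-fold 8 were higher (0.554%) and 35 lower (2.43%). At 1.5-fold the decreases among compared genes were thus a smaller share than among receptor probes. Differences of either sign were uneven, with 58.0% of all genes higher on HFHS, the share against which the direction counts of the lists below stand. Of the 75 increases 3, and of the 24 decreases 1, passed the floor only through the array on which they were high. The split leaned on the centring of the arrays. With each array centred on its median over the compared genes, which takes the median difference to -0.04, 50 genes were 2-fold or more higher and 43 as much lower. The smallest difference among the 75 was 1.002 in *Gbp4* and the largest left out was 0.99 in *Slc6a13*. Among the decreases *Ddit4* at -1.01 lay just inside and *Hif3a*, just under 2-fold, just outside.

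**Figure D1:**
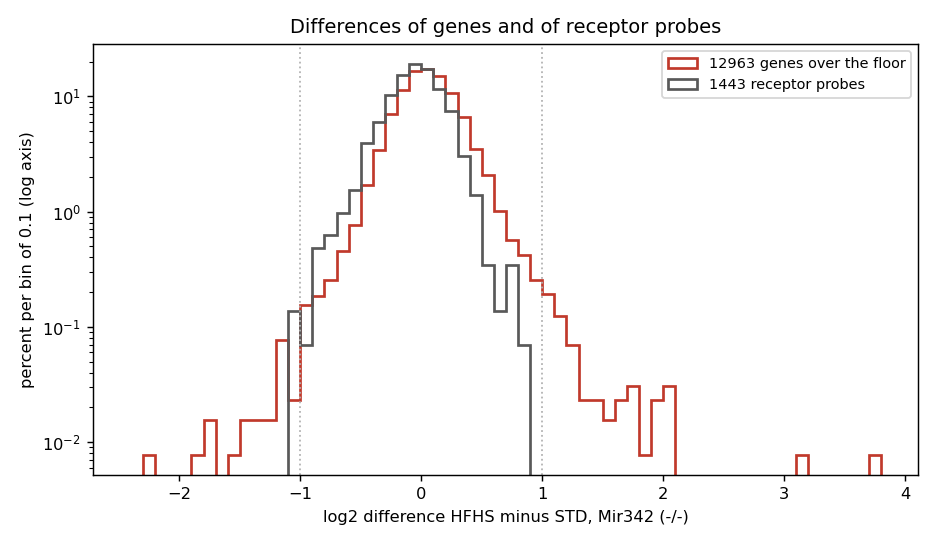
Share of genes over the floor (red) and of receptor probes (grey) in each bin of 0.1 of the log2 difference HFHS minus STD in Mir342 (-/-); the y axis is logarithmic and dotted lines mark 2-fold. The 75 genes past 2-fold on the right form a tail that the receptor probes, whose highest difference is 0.89, do not have. Receptor probes are read as background, so they give no measure of differences between animals in expressed genes. On the left, 2 of 1443 receptor probes also pass 2-fold, the lowest at -1.05, beside 24 of 12963 genes.

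The gene lists below were chosen with earlier results of these data known, so the shares of all genes set beside them are no test. Among the metabolic lists, fat synthesis had the most genes at least 1.5-fold higher. Of 21 genes of de novo lipogenesis over the floor, 15 were higher on HFHS, 7 by at least 1.5-fold and 4 by at least 2-fold, and 0 were lower by 1.5-fold, where 3.12% of all genes were higher by that size. Their median difference was 0.26, against 0.05 for all genes. *Pnpla3*, a lipid droplet protein induced by the carbohydrate response, was at 8.93 on HFHS and 7.35 on STD, which is 2.99-fold higher. *Acss2*, which activates acetate, was at 8.20 on HFHS and 6.70 on STD (2.83-fold). *Elovl6*, which lengthens palmitate, was at 6.88 on HFHS and 5.72 on STD (2.24-fold). *Fasn*, the fatty acid synthase, was at 10.64 on HFHS and 9.51 on STD (2.19-fold).

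Regulators of the same list lay below 2-fold and went both ways. *Srebf1*, which encodes the transcription factor of lipogenic genes, was at 7.67 on HFHS and 6.74 on STD (1.92-fold), and *Thrsp*, a lipogenic cofactor, at 9.80 on HFHS and 8.86 on STD (1.91-fold). *Mlxipl*, which encodes the carbohydrate response factor ChREBP, was at 7.71 on HFHS and 7.95 on STD, and *Nr1h3*, the sterol receptor LXR alpha, differed by -0.10. *Me1*, the malic enzyme that supplies NADPH, differed by 0.68. *Scd1*, the desaturase with the highest level in the list, was at 12.54 on HFHS and 12.30 on STD, and *Acacb*, whose product restrains fatty acid oxidation, was the lowest member at -0.43. The increase did not extend to every enzyme: *Acly*, which makes acetyl-CoA from citrate, differed by 0.34, and *Acaca*, the acetyl-CoA carboxylase of lipogenesis, was at 9.10 on HFHS and 9.16 on STD.

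Cholesterol synthesis showed the same direction. Of 19 genes, 15 were higher, 4 by at least 1.5-fold and 0 lower by 1.5-fold, with a median of 0.35. *Nsdhl*, a late enzyme of the pathway, was at 8.50 on HFHS and 7.30 on STD (2.29-fold). *Hmgcs1*, which makes HMG-CoA, was at 9.15 on HFHS and 8.22 on STD (1.91-fold). *Insig1*, a sterol-sensing brake on this program, was at 8.73 on HFHS and 7.88 on STD (1.81-fold), and *Lss*, the cyclase that forms lanosterol, at 6.18 on HFHS and 5.41 on STD (1.72-fold). *Sqle*, the squalene epoxidase, was at 5.46 on HFHS and under the floor on STD, so that its difference was at least 0.40.

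The genes of triglyceride assembly and the lipid droplet did not share this shift. Higher members numbered 11 of 24 and lower ones 13, around a median of -0.04. *Dgat2*, which adds the last fatty acid to triglyceride, was at 10.81 on HFHS and 9.78 on STD (2.04-fold), and *Agpat2*, an earlier acyltransferase, at 9.27 on HFHS and 8.51 on STD. *Lpin1*, a phosphatidate phosphatase that fasting induces, was at 10.57 on HFHS and 11.09 on STD. *Plin1*, which coats the droplet of adipocytes, was at 10.07 on HFHS and 9.85 on STD, a difference of 0.22.

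In the list of lipolysis and its receptors, the main lipase genes were nearly level and 3 receptor genes were higher by at least 1.5-fold. *Pnpla2*, the main triglyceride lipase, was at 11.99 on HFHS and 11.97 on STD, and *Lipe*, hormone-sensitive lipase, at 8.29 on HFHS and 8.28 on STD. *Hcar1*, the lactate receptor that inhibits lipolysis, was at 8.48 on HFHS and 6.67 on STD, a log2 difference of 1.81. *Ptger3*, a prostaglandin E2 receptor coupled to the same inhibitory G protein, was at 8.98 on HFHS and 7.63 on STD (2.54-fold). *Npr3*, which clears natriuretic peptides, was at 10.65 on HFHS and 9.72 on STD (1.91-fold), and *Hcar2*, the receptor for hydroxybutyrate and niacin, differed by 0.51. Over the 19 genes of this list the median was 0.01, with 3 past 1.5-fold on the higher side and 0 on the lower.

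Other fuel pathways had few genes at least 1.5-fold apart. Of 15 genes of fatty acid uptake, *Fabp5*, a fatty acid carrier of macrophages and adipocytes, was at 8.0 on HFHS and 6.73 on STD (2.42-fold), while *Cd36*, the main fatty acid transporter, was at 12.22 on HFHS and 12.16 on STD and *Lpl*, lipoprotein lipase, at 11.97 on HFHS and 12.03 on STD. Of 26 genes of glucose use, 20 were higher with a median of 0.25, led by *Tpi1*, a glycolytic isomerase (0.78), *Aldoc*, an aldolase (0.71), and *Gpd1*, which forms glycerol phosphate (0.65). *Slc2a4*, the insulin-responsive glucose transporter, was at 7.96 on HFHS and 7.40 on STD. Respiratory chain subunits had 35 of 47 members higher, where 58.0% of all genes were, none of them by 1.5-fold, with a median of 0.13. The 23 genes of branched-chain amino acid breakdown had a median of -0.04, with 0 at 1.5-fold in either direction, and the 24 of fatty acid oxidation a median of 0.10, where *Ucp3*, a mitochondrial carrier, stood out at 0.92.

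The list with the most decreases was that of genes induced by glucocorticoids and fasting. Of 29 such genes over the floor, 24 were lower on HFHS and 5 higher, 8 were lower by at least 1.5-fold and 4 by at least 2-fold, against 0 higher by 1.5-fold, where 1.31% of all genes were lower by that size. Their median was -0.37. *Fkbp5*, a chaperone of the glucocorticoid receptor and one of its direct targets, was at 7.12 on HFHS and 8.83 on STD, a log2 difference of -1.71. *Errfi1*, an inhibitor of epidermal growth factor receptors, was at 7.79 on HFHS and 8.96 on STD (-1.17). *Arrdc2*, an arrestin-like gene, was at 6.88 on HFHS and 8.01 on STD (-1.14), and *Ddit4*, which restrains the growth kinase mTORC1, at 6.91 on HFHS and 7.91 on STD.

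Some transcription factors and the steroid-activating enzyme of this list were also lower. *Zbtb16*, a zinc finger factor, was at 9.20 on HFHS and 10.15 on STD (-0.95), *Klf15*, a regulator of amino acid and glucose use, at 6.76 on HFHS and 7.65 on STD (-0.89), and *Hsd11b1*, which turns inactive into active glucocorticoid within the tissue, at 7.04 on HFHS and 7.96 on STD (-0.92). *Bcl6*, a transcriptional repressor, went the other way and was the highest member, at 7.38 on HFHS and 7.06 on STD. In the *Mir342* (+/+) pair the same 29 genes had a median of -0.63 and 26 had the same direction as in *Mir342* (-/-). *Pck1*, which fasting also induces in fat, was at 11.71 on HFHS and 11.75 on STD, and was not on the list.

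Genes of the circadian clock were lower by less. Of 18, 15 were lower and 3 higher, with a median of -0.23 in *Mir342* (-/-) and -0.23 in *Mir342* (+/+). *Usp2*, a clock-controlled deubiquitinase, was at 6.27 on HFHS and 7.02 on STD (-0.75), and it alone passed 1.5-fold. *Cry2*, a core repressor, differed by -0.58, *Ciart*, another repressor, by -0.57 and *Per1*, which glucocorticoids also induce, by -0.43. The time of day at which each animal was killed is not given in the labels, so its part in the difference was not tested.

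Beyond these pathways, the largest decreases of named genes were *Zim1*, an imprinted zinc finger gene, at 6.01 on HFHS and 7.87 on STD (-1.86), and *Cyp2f2*, a cytochrome P450, at 6.29 on HFHS and 8.03 on STD (-1.73). Another probe of *Cyp2f2* over the floor gave -0.51. *Chchd10*, a mitochondrial cristae protein, was at 7.50 on HFHS and 9.06 on STD (-1.56), and *Cyp1b1*, a cytochrome that acts on estrogens and retinoids, at 7.28 on HFHS and 8.76 on STD (-1.48). *Trp53inp1*, a stress gene tied to p53 and autophagy, differed by -1.41 and *Rgs2*, which shortens G protein signals, by -1.32, which was -0.72 with the mean of its probes and then under 2-fold. *Irf4*, a transcription factor that fasting induces in adipocytes and that also serves lymphocytes, was at 6.73 on HFHS and 8.01 on STD (-1.28). It was the lowest of 24 adipocyte identity genes, whose median was -0.01 and where *Pparg*, the master regulator of adipocytes, was at 9.95 on HFHS and 9.96 on STD.

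**Figure D2:**
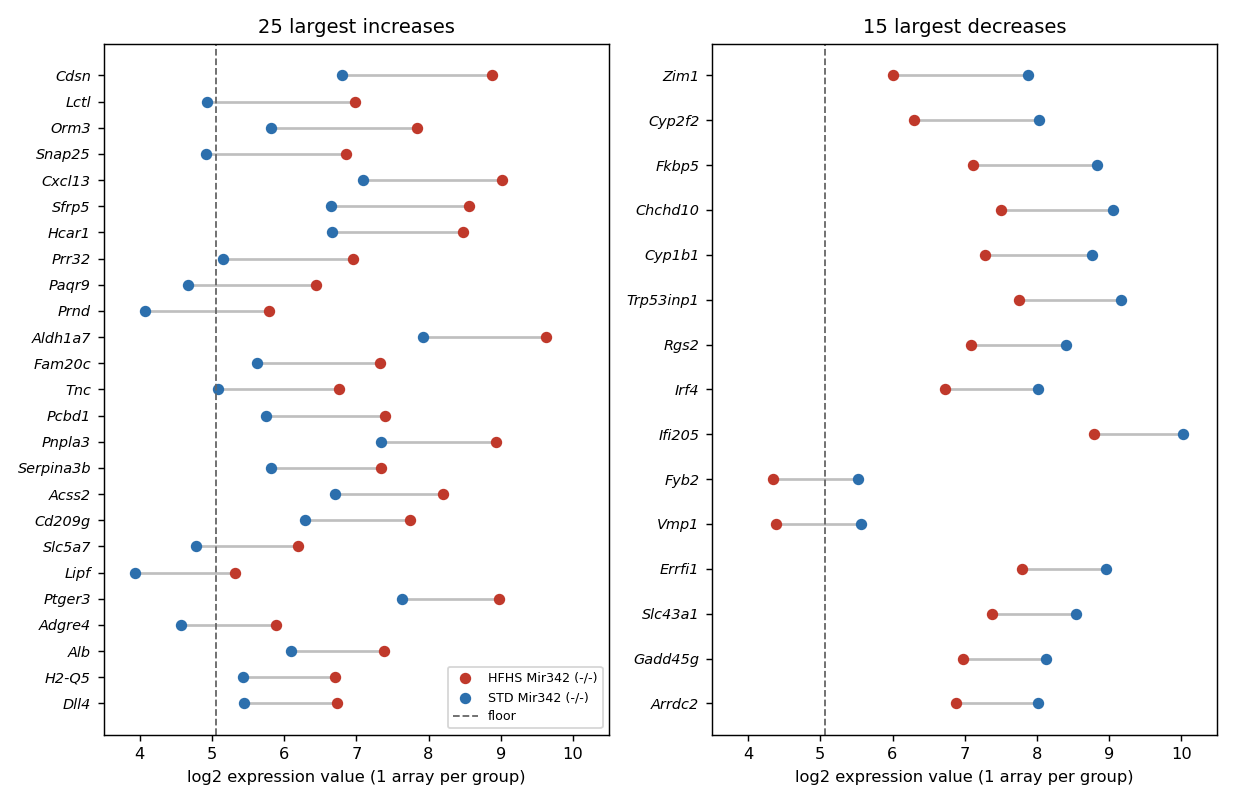
Log2 expression values of the 25 largest increases (left panel) and 15 largest decreases (right panel) among named genes at 2-fold or more, on the HFHS Mir342 (-/-) array (red) and the STD Mir342 (-/-) array (blue), 1 array per group; the dashed line is the floor of 5.06. Cdsn heads the increases and Zim1 the decreases, and a point left of the dashed line means that the difference is known only as a lower bound.

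Adipocyte hormones varied one by one. *Sfrp5*, a secreted Wnt antagonist of adipocytes, was at 8.56 on HFHS and 6.65 on STD (3.77-fold higher), and was far above the rest of its list. *Lep*, the gene of leptin, was at 11.18 on HFHS and 10.82 on STD, a difference of 0.36, against 11.48 on HFHS and 9.28 on STD in *Mir342* (+/+), a difference of 2.20. Whether the genotypes differ in this was not tested. *Retn*, the gene of resistin, was at 12.39 on HFHS and 12.21 on STD. *Apln*, the peptide apelin, was at 5.65 on HFHS and under the floor on STD, a difference of at least 0.59. *Nampt*, which makes a precursor of NAD, was lower, at 8.31 on HFHS and 9.16 on STD. Past 1.5-fold, 4 of 21 adipokine genes were higher and 2 lower, and the list had a median of 0.12.

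Macrophage genes were higher on HFHS. Of 24 general macrophage markers over the floor, 21 were higher and 12 by at least 1.5-fold, with 0 lower by 1.5-fold, and the median difference was 0.57. The median level of the list was 7.46 on HFHS and 6.82 on STD. In whole tissue, more cells of a type and more RNA per cell cannot be told apart. *Cd68*, a lysosomal protein of macrophages, was at 9.61 on HFHS and 8.45 on STD (2.24-fold). *Ms4a7*, a membrane protein of monocyte-derived cells, was at 7.04 on HFHS and 5.89 on STD (2.22-fold), and *Ptprc*, the pan-leukocyte antigen CD45, at 7.46 on HFHS and 6.39 on STD (2.09-fold). *Adgre1*, which encodes F4/80, differed by 0.92 and *Fcer1g*, an adaptor of Fc receptors, by 0.89. The exceptions were few: *Cx3cr1*, a chemokine receptor, was the lowest member at -0.26.

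Markers of both resident and lipid-associated macrophages were higher. Of 15 resident markers, 13 were higher and 6 by at least 1.5-fold, with a median of 0.40: *Cd209g*, a C-type lectin, was at 7.75 on HFHS and 6.28 on STD (2.76-fold), *Folr2*, a folate receptor, at 9.05 on HFHS and 8.03 on STD (2.04-fold), and *Mgl2*, a galactose lectin, at 6.36 on HFHS and 5.36 on STD (2.01-fold). *Cd163*, the hemoglobin scavenger receptor, was at 8.09 on HFHS and 8.07 on STD and did not follow them. Of 25 lipid-associated markers, 21 were higher and 8 by at least 1.5-fold, with a median of 0.30. *Mmp12*, macrophage elastase, was at 7.10 on HFHS and 5.95 on STD (2.21-fold), and *Lgals3*, a galectin of phagocytes, at 7.30 on HFHS and 6.44 on STD (0.87). In *Mir342* (+/+) *Mmp12* was lower on HFHS, at 7.0 against 7.88 on STD. There 16 of the 25 markers were higher, with a median of 0.28. *Trem2*, the lipid receptor that defines these cells, was at 6.62 on HFHS and 6.25 on STD, a difference of 0.37, and *Gpnmb*, a lysosomal glycoprotein, was higher by 0.25, so the defining genes were below 1.5-fold.

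Antigen presentation genes were higher too. Of 11 genes of MHC class II presentation, 9 were higher and 5 by at least 1.5-fold, with a median of 0.56, among them *H2-Ab1*, a class II chain, at 10.66 on HFHS and 9.93 on STD, and *Ctss*, the cathepsin that trims the invariant chain, at 8.95 on HFHS and 8.20 on STD. Chemokines and cytokines had a median of 0.21 over 33 genes. *Ccl2*, which recruits monocytes, was at 6.17 on HFHS and 5.45 on STD (0.71), *Ccr2*, its receptor, differed by 0.52, and *Tnf* was under the floor on both arrays. *Ifi205*, an interferon-inducible gene placed with dendritic cell markers, went the other way at 8.79 on HFHS and 10.02 on STD (-1.23). Markers of T and NK cells had only 10 of 28 on the array over the floor, with a median of 0.13, and *Cd3e*, which defines T cells, was at 5.38 on HFHS and 5.48 on STD.

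Interferon-responsive genes on the list mostly shifted by small steps in 1 direction. Higher members numbered 35 of 39, with 7 past 1.5-fold and 0 lower by that size, and the median was 0.35. *Gbp4*, a guanylate-binding protein of host defence, was at 7.50 on HFHS and 6.50 on STD, *Iigp1* at 7.59 on HFHS and 6.64 on STD (1.93-fold), and *Igtp* at 6.62 on HFHS and 5.67 on STD (1.92-fold), the last 2 being immunity-related GTPases. *Oas2*, a sensor of double-stranded RNA, differed by 0.70 and *Bst2*, which tethers viruses, by 0.76. *Ifit3*, a classical target of type I interferon, was the lowest member at -0.31. *Ifi205*, also interferon-inducible, was placed with dendritic cell markers and is outside these counts. It differed by -1.23.

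**Figure D3:**
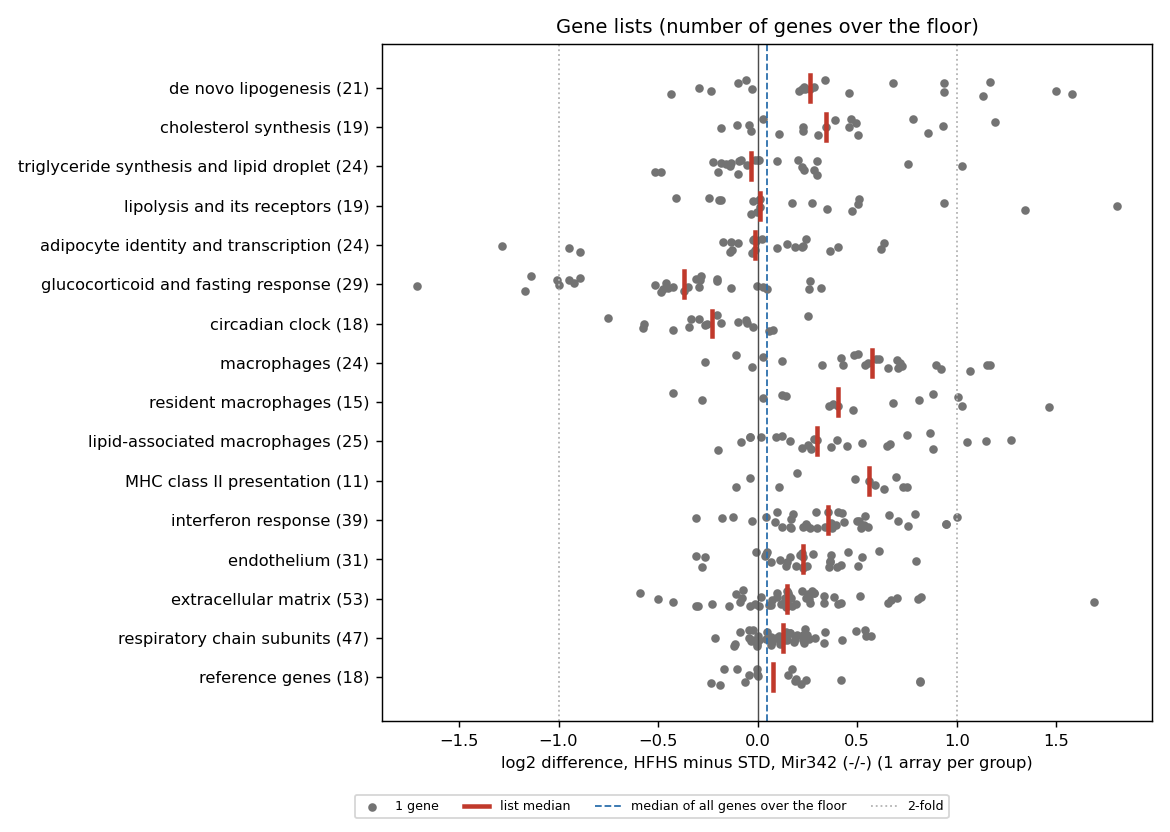
Log2 difference HFHS minus STD in Mir342 (-/-) of each gene over the floor (grey points, spread vertically at random) for 16 gene lists, with the list median (red bar), the median of all genes over the floor (blue dashed line) and 2-fold (dotted lines). The bars of the macrophage, MHC class II and interferon lists lie right of the blue line, at 0.57, 0.56 and 0.35, and those of the glucocorticoid and clock lists left of it, at -0.37 and -0.23.

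Promoters were searched for short elements known from interferon, sterol and clock control, in 6 of the lists and in all genes. The 250 bases before each RefSeq start site (GRCm38.p6) were read on both strands, for 27025 genes that the table holds, and a gene counted where any of its start sites had a match. The interferon element GAAANNGAA was found in 14 of 30 interferon list genes with a promoter in the table (46.7%), against 8.18% of all 27025 genes and 7.3% of genes over the floor. The sterol element TCACNCCAC was found in 1 of 15 cholesterol genes, against 1.22% of all genes. An E-box, CACGTG, was found in 5 of 17 clock genes (29.4%), in 6 of 24 glucocorticoid and fasting genes, in 4 of 15 cholesterol genes (26.7%) and in 4 of 19 lipogenesis genes (21.1%), against 6.86% of all genes and 9.69% of genes over the floor. The lists were written from known responses, so an element in them is a description of the lists and says nothing on what acted in this tissue.

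The stretches below are from list genes that were at least 1.5-fold higher and held their element, printed so that the match can be seen, with the element in capitals. They are chr11:58199512-58199540 on the plus strand, chr3:142530274-142530302 on the plus strand, chr8:71537584-71537612 on the minus strand and chr13:119690204-119690232 on the plus strand.
Igtp: tctaggaactGAAACTGAAagctgttcgg
Gbp7: tgtgtgcagtTTCAGTTTCagttctccat
Bst2: ggcattccagGAAAATGAAactgaaaggc
Hmgcs1: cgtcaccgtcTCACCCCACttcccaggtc
The element begins 34 bases before the start site in *Igtp*, 52 in *Gbp7*, 130 in *Bst2* and 137 in *Hmgcs1*. In *Gbp7* it lies on the opposite strand, and *Bst2* holds another match that overlaps the one shown. *Gbp7*, a guanylate-binding protein, was at 8.18 on HFHS and 7.38 on STD, a difference of 0.79. List genes with the element differed in both directions: *Ifit3* holds it and differed by -0.31, and *Irgm1*, an immunity-related GTPase, holds it and differed by 0.04.

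Some of the largest increases were highest by far on the HFHS *Mir342* (-/-) array. Of the 75 genes, 6 read at least 2-fold higher there than on each of the other 3 arrays. The 75 were picked as high on this array, and the count was not made over all genes. *Ighg3* and *Gm26504* among them passed the floor only through this array. *Ighg3*, an IgG3 heavy chain gene, was at 8.65 on HFHS and below the floor on STD in *Mir342* (-/-), which makes it 12.0-fold higher or more, and under the floor on both *Mir342* (+/+) arrays. *Cxcl13*, the chemokine that gathers B cells into follicles, was at 9.02 on HFHS and 7.09 on STD, against 6.58 on HFHS and 7.39 on STD in *Mir342* (+/+). *Snap25*, a SNARE protein of vesicle fusion, was at 6.85 on HFHS and under the floor on STD, a difference of at least 1.79, against 5.27 on HFHS and 5.11 on STD in *Mir342* (+/+). *Alb*, the gene of serum albumin, was at 7.38 on HFHS and 6.09 on STD, against 6.06 on HFHS and 5.82 on STD in *Mir342* (+/+). *Orm3*, an acute phase glycoprotein gene, was at 7.84 on HFHS and 5.81 on STD, against 6.81 on HFHS and 5.11 on STD in *Mir342* (+/+), where it was thus higher on HFHS too, by 1.70.

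Markers of B and plasma cells were set beside these. Of 19 on the array, 10 lay over the floor, *Ighg3* itself and *Jchain* only through the HFHS *Mir342* (-/-) array, so a count or median of this list would rest on how its members were let in and is not given. *Jchain*, the joining chain of secreted antibodies, was at 6.04 on HFHS and 5.12 on STD, and *Cd79a*, part of the B cell receptor, at 5.92 on HFHS and under the floor on STD, at least 0.86 apart. *Ighm*, the heavy chain of immunoglobulin M, was at 10.20 on HFHS and 9.73 on STD, and *Sdc1*, a plasma cell surface protein, at 5.87 on HFHS and 5.88 on STD. *Bank1*, also on this list and over the floor on every array, was at 6.44 on HFHS and 5.59 on STD. That is a difference of 0.85, against 0.76 in *Mir342* (+/+). Among other plasma cell genes, *Derl3* differed by -0.34, *Xbp1* by -0.17 and *Mzb1* by -0.08. The SNARE list had 20 genes over the floor with a median of 0.07, and *Snap25* alone in it passed 1.5-fold. Nerve and Schwann cell markers, among which *Snap25* also counts, had a median of 0.11, with *Mbp*, of myelin, at 6.42 on HFHS and 6.31 on STD and *Stmn2*, of axons, at 6.80 on HFHS and 7.03 on STD.

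A further 4 of the 75 genes read at least 2-fold lower on the STD *Mir342* (-/-) array than on each of the other 3, with values as read: *Mmp12*, *Atp6v0d2*, *Ms4a14* and *Bcl6b*. This count too was made only among genes picked for the difference between these arrays. *Mmp12* was at 7.0 on HFHS and 7.88 on STD in *Mir342* (+/+). *Atp6v0d2*, a proton pump subunit of lipid-laden macrophages and osteoclasts, was at 5.47 on HFHS and under the floor on STD in *Mir342* (-/-), a difference of at least 0.41, and at 5.90 on HFHS and 6.79 on STD in *Mir342* (+/+). Among the 24 decreases, 0 genes were set apart by 1 array in this way.

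Endothelial markers on the list differed by small amounts. Of 31, 27 were higher in *Mir342* (-/-), where 58.0% of all genes were, and 2 by at least 1.5-fold, where 3.12% of all genes were, with a median of 0.23 and of -0.09 in *Mir342* (+/+). The difference between the genotypes was not tested. *Aplnr*, the apelin receptor, was at 6.49 on HFHS and 5.70 on STD (0.80), *Kdr*, a receptor for VEGF, at 9.32 on HFHS and 8.79 on STD (0.53), and, outside the list, *Dll4*, a Notch ligand of sprouting vessels, at 6.73 on HFHS and 5.45 on STD (2.43-fold). *Cldn5*, also outside the list, was at 8.10 on HFHS and 7.07 on STD (2.04-fold), and 2.02-fold higher in *Mir342* (+/+). *Pecam1*, a general endothelial marker, was at 9.84 on HFHS and 9.85 on STD in *Mir342* (-/-).

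Matrix genes were mixed. Of 53, 40 were higher, 6 by at least 1.5-fold, and *Ogn*, a small proteoglycan, alone was lower by 1.5-fold (-0.59); the median was 0.15, and 0.41 in *Mir342* (+/+), where 21 were at least 1.5-fold higher. *Tnc*, a matrix protein of remodelling tissue, was at 6.77 on HFHS and 5.08 on STD (3.22-fold). *Col15a1*, a basement membrane collagen, was at 7.58 on HFHS and 6.76 on STD, and *Col12a1*, a fibril-associated collagen, at 6.02 on HFHS and 5.22 on STD. *Col1a1* was at 8.98 on HFHS and 8.89 on STD and *Col3a1* at 9.33 on HFHS and 9.18 on STD, so the main fibrillar collagens were nearly level. Of 29 fibroblast markers 18 were higher, near the share of all genes, with *Pi16*, of precursor cells, at 0.87 and *Apod*, a lipocalin, at -0.92.

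The remaining large increases were spread over other roles. *Cdsn*, an adhesion protein of skin, was at 8.88 on HFHS and 6.81 on STD (4.21-fold). *Lctl*, a member of the klotho and lactase family, was at 6.99 on HFHS and below the floor on STD, 3.80-fold higher or more. *Aldh1a7*, an aldehyde dehydrogenase, was at 9.63 on HFHS and 7.92 on STD (3.27-fold), *Fam20c*, a kinase of secreted proteins, at 7.33 on HFHS and 5.63 on STD (3.25-fold), and *Pcbd1*, which recycles the cofactor of aromatic amino acid hydroxylases, at 7.40 on HFHS and 5.75 on STD (3.12-fold). *Serpina3b*, a serine protease inhibitor, was at 7.33 on HFHS and 5.82 on STD. *Slc5a7*, the choline transporter, was at 6.19 on HFHS and under the floor on STD, at least 1.13 apart, and *Slc25a10*, the mitochondrial dicarboxylate carrier, at 7.16 on HFHS and 5.93 on STD (2.34-fold). *Lipf*, a lipase of the stomach, was at 5.31 on HFHS, only 0.25 over the floor, so its difference of 1.37 as read is mostly below what the array resolves.

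**Figure D4:**
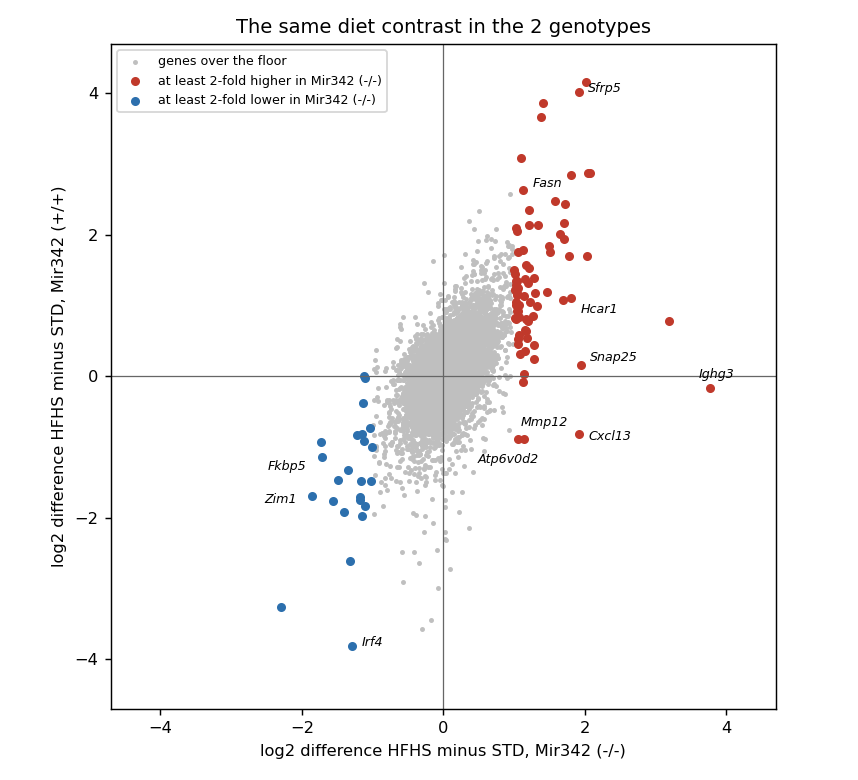
Log2 difference HFHS minus STD in Mir342 (-/-) (x axis) and in Mir342 (+/+) (y axis) of 12963 genes over the floor, 1 array per group; red points are the 75 genes at least 2-fold higher in Mir342 (-/-) and blue points the 24 at least 2-fold lower. Most red points lie in the upper right, while Mmp12, Atp6v0d2 and Cxcl13 lie in the lower right, and all blue points but 1 lie below 0.

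The same genes were then read in the *Mir342* (+/+) pair, which shares no array with this comparison. Of the 75 genes, 70 were higher on HFHS there too, as were 52.6% of all genes, and 61 by at least 1.5-fold, where 6.53% of all genes passed that size. Of the 24 decreases, 23 were lower there, as were 47.3% of all genes, and 21 by at least 1.5-fold, against 4.67% of all genes. Of the 405 genes at 1.5-fold or more, 261 were higher by as much in *Mir342* (+/+) and 36 were lower, and of the 170 decreases 96 were lower by as much and 29 higher. The median of the 75 was 1.17 in *Mir342* (-/-) and 1.20 in *Mir342* (+/+), and that of the 24 was -1.18 in *Mir342* (-/-) and -1.47 in *Mir342* (+/+). The spread across all genes was wider in *Mir342* (+/+), with a standard deviation of 0.42 against 0.28 in *Mir342* (-/-), while that of the receptor probes was 0.27 in *Mir342* (+/+) and 0.24 in *Mir342* (-/-).

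Reference genes give a last measure of the pair. Among 18 genes in common use for normalization 10 were higher and 8 lower, and their median was 0.08. *Actb* was at 9.10 on HFHS and 8.92 on STD, *Tbp* at 6.73 on HFHS and 6.92 on STD, and *B2m* at 12.41 on HFHS and 12.23 on STD. *Tuba1a*, a tubulin (0.82), and *Gusb*, a lysosomal enzyme (0.81), passed 1.5-fold, and both did so in *Mir342* (+/+) as well. Where a gene had another probe over the floor (450 genes), the 2 probes gave differences a median of 0.17 apart. Of the 99 genes at 2-fold in either direction, 5 had another probe; the direction was the same in all 5, and 3 were past 1.5-fold on it. One of these, *Gm26504*, read the same on both probes and is no independent check. *Fabp5* gave 1.28 and 1.82, *Cryab*, a small heat shock protein, 1.04 and 0.64, and *H2-Q5*, a class I chain whose near-identical relatives can share probes, 1.29 and 0.18.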

How the data were processed

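Total RNA of epididymal fat was biotin-labelled and hybridised to 4 GeneChip Mouse Gene 2.0 ST arrays, 1 per group of genotype and diet. The values the authors deposited are log2 expression values, 1 per transcript cluster; background correction, summarization and normalization are not given in the sources used here. They were taken as deposited. There is no sequencing depth to state, and the single array per group sets the precision. Samples were grouped by the genotype and diet in their labels, and 0 columns were left out.

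Of 41345 probes, 23521 had 1 symbol in the platform annotation, 1820 several and 16004 none. The probe with the highest mean over the 4 arrays stood for a gene (1082 genes had several). A gene was compared if that mean exceeded 5.06, the 95th percentile of 1443 receptor probes. Where 1 array read under this floor, the floor replaces that value and the difference is called at least so large. Counts and medians use values as read, without a test. The members and the 47 gene lists were chosen with earlier results of these data known. Genes named are the 25 largest increases and 15 largest decreases at 2-fold, without small RNAs, pseudogenes, histones, antigen receptor segments, receptors of smell and taste and genes with no proper name, up to 6 members per list, and members of high level that did not differ. *Trem2*, *Gpnmb*, *Cd163*, *Pecam1*, *Cd3e*, *Sdc1*, *Mbp*, *Col1a1*, *Col3a1*, *Acaca*, *Ifit3*, *Irgm1*, *Cx3cr1*, *Tnf*, *Ms4a14*, *Bcl6b*, *Bcl6*, *Mlxipl*, *Nr1h3*, *Mzb1* and *Gm26504* were added after their values were seen. So was *Cldn5*.

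The alternatives were quantile normalization, centring on all probes, omission of the floor, its raising by 1, its use on the higher array, values clipped at it and the mean of a gene's probes; centring on genes over the floor was added after seeing the data. The counting and quantile steps were run on simulated data with planted differences well past 2-fold. That checks the code and not the error of these arrays. Work was done with matplotlib 3.10.9, pandas 2.3.3 and numpy 2.4.6 under Python 3.11.15.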

Additional observations from a re-analysis of the deposited data

Results flagged for a closer look

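In 3 of the 75 increases the diet difference ran the other way in *Mir342* (+/+), by at least 1.5-fold. Of all genes compared, 4.67% were lower by that size in *Mir342* (+/+), so the count is near that share. The difference between the genotypes was not tested, since each group has 1 array. *Cxcl13* differed by 1.92 in *Mir342* (-/-) and -0.82 in *Mir342* (+/+), and *Mmp12* by 1.15 in *Mir342* (-/-) and -0.89 in *Mir342* (+/+). *Atp6v0d2* differed by 1.05 as read in *Mir342* (-/-), where STD was under the floor, and by -0.89 in *Mir342* (+/+). With STD set to the floor its difference in *Mir342* (-/-) was at least 0.41, so *Atp6v0d2* reached 2-fold only as read.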

How the results depend on the processing

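The count of genes at least 2-fold higher was 75 and ranged between 50 and 86 over 8 alternatives, and that of genes at least 2-fold lower was 24 and ranged between 20 and 43. The highest count of decreases, 43, came from centring each array on its median over the genes over the floor, which lowers every difference by its construction. Under the same centring, 40 of the 50 increases were at least 1.5-fold higher in *Mir342* (+/+), against 61 of 75. Of the list medians computed under alternatives, 234 moved by less than the standard deviation of the receptor probes (0.24), a step in which medians near 0 may change sign, and 1 of more than 0.1 reversed: the median of mast cell and granulocyte markers was 0.19 and came to -0.0014 without the floor, where more dim genes enter. Of the values of named genes under alternatives, 156 moved by less than 0.24 and 4 by more, all with the mean of a gene's probes: *Prnd* to 0.84, *H2-Q5* to 0.73, *Cyp2f2* to -1.12 and *Rgs2* to -0.72. Each centring shifts every difference by the same small amount, and the mean of probes leaves a gene with a single probe as it was. Many of these list medians and gene values thus could not move by 0.24, and the counts are no measure of robustness. Clipping low values at the floor left 68 increases and 20 decreases. With 1 array per group no replicate can be left out. No paired analysis was possible because no group has replicates. Differences between animals, their pooling and array effects cannot be told apart from diet here.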

Other observations

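Lists that the report does not describe mostly differed by little between HFHS and STD in *Mir342* (-/-). Proliferation genes were an exception. Of 19, 15 were higher and 2 by at least 1.5-fold, with a median of 0.29, led by *Mki67*, a marker of dividing cells, at 6.33 on HFHS and 5.68 on STD. Acute phase genes split: *Orm1* was at 8.53 on HFHS and 7.59 on STD and *Lbp*, which binds bacterial lipopolysaccharide, at 9.59 on HFHS and 8.74 on STD, while *C4b*, a complement factor, was at 9.40 on HFHS and 10.07 on STD and *Hp*, the gene of haptoglobin, at 11.26 on HFHS and 11.65 on STD. The medians of imprinted genes (0.03), heat shock and unfolded protein response genes (0.11), detoxification genes (0.05), Wnt genes (0.09), TGF-beta and BMP genes (0.16) and solute carriers (0.06) lay near that of all genes (0.05). *Bmp3*, a BMP antagonist of fat, was at 7.46 on HFHS and 6.25 on STD, and *Nnat*, an imprinted gene of adipocytes, was higher by 0.74. Insulin and growth factor signalling genes had a median of -0.10, with *Insr*, the insulin receptor, at 8.91 on HFHS and 9.37 on STD and *Irs3*, an adipocyte substrate of it, at 7.05 on HFHS and 6.32 on STD. Immediate early genes had a median of -0.03, hypoxia genes -0.05 and thermogenic genes -0.03, and *Ucp1*, the uncoupling protein of brown fat, was under the floor on both arrays.

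Most lists of other cell types had medians near that of all genes, and that of monocytes and dendritic cells was higher. The medians were 0.04 for mesothelium, -0.06 for smooth muscle and pericytes, -0.06 for skeletal muscle, 0.02 for duct epithelium, 0.00 for blood and 0.18 for fibroblasts. For monocytes and dendritic cells the median was 0.31, with 9 of 11 genes over the floor higher on HFHS.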
